A study of Homo sapiens with 13 samples.

Results

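The regions described here are the 554 H3K27ac regions of MDA-MB-231 cells that had no listed region of methylated H3K4 and lay away from promoters. Here and below, a methyl mark counts as absent where no region was listed, and H3K4me2 was not assayed. They were chosen by position from the H3K27ac peak list: a region had to share no base with an H3K4me1 or H3K4me3 region and to touch no 3 kb window centred on the canonical TSS of a protein-coding gene. The 554 regions, called H3K27ac-only regions below, were 1.35% of the 41034 H3K27ac regions and 1.93% of the 28678 distal ones.

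The cells, MDA-MB-231, are a long-established line from a human breast cancer of the triple negative, basal B type. Untreated cells were analysed by ChIP-seq with antibodies to H3K4me1, H3K4me3, H3K27ac, Pol II and CTCF, from 2 independent replicates for each antibody, and in a single library with an antibody to p300/CBP. The data analysed are 1 list of peak positions per antibody, called by the authors after the replicates had been merged, so the lists hold no height, no read depth and no spread between replicates. In the 3 kb windows of VIM, CD44, CAV1 and EGFR, which are expressed in mesenchymal-like breast cancer cells, H3K27ac, H3K4me3 and Pol II were all listed, and in those of ESR1, PGR, GATA3 and CDH1, which mark luminal or epithelial cells, none of the 3 was listed except for H3K4me3 at PGR.

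H3K27ac is an acetyl mark placed on the tail of histone H3 mainly by the acetyltransferases p300 and CBP, and it is found on nucleosomes at active promoters and active enhancers. H3K4me1, placed by the MLL3 and MLL4 methyltransferases, marks enhancers in general, and H3K4me3 marks active promoters. An active enhancer is therefore usually recognised by H3K27ac together with H3K4me1. CTCF, a DNA-binding protein with many zinc fingers, recognises a long motif, positions the nucleosomes on either side of its site and holds the anchors of many chromatin loops.

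Sequences are printed for 2 sets of regions on which the description turns. The first set shows 3 of the H3K27ac-only regions with a p300/CBP peak whose central 300 bp held an AP-1 motif, since AP-1 is the family of factors the study was about. They were picked for the motif, so they do not show how often it occurs. The windows are centred on the acetylated region and not on the p300/CBP peak. The AP-1 motif was searched as TGANTCA, which reads the same on both strands, and its matches are in capitals. The sequences are from the forward strand of GRCh37, which has the same coordinates as hg19.
chr9:114629401-114629700, 28.9 kb upstream of UGCG: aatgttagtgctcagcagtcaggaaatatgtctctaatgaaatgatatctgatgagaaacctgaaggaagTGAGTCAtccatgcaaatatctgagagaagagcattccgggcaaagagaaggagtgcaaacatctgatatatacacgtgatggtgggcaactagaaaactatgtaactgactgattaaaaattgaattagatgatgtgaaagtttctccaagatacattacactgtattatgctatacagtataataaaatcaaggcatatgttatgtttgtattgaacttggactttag
chr7:83098326-83098625, in SEMA3E: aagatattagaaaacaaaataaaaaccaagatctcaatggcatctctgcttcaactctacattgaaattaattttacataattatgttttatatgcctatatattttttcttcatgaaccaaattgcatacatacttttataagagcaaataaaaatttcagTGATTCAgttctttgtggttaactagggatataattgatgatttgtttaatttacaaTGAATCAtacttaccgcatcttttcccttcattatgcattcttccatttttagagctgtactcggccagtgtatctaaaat
chr12:74996426-74996725, 64.8 kb downstream of ATXN7L3B: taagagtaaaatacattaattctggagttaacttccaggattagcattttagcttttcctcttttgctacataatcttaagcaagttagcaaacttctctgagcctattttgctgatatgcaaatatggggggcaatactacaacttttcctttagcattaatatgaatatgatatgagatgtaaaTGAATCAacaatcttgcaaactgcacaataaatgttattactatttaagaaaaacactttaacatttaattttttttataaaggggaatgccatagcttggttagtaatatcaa

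The second set shows CTCF peaks that touched an H3K27ac-only region. Their CTCF core motif, searched on both strands as CC, any 3 bases, AG, any 2 bases and GGC, is in capitals. These 4 were taken after the values were seen, as the regions under 400 bp farthest from H3K4me1 whose CTCF peak held a strict form of the motif outside the region. Each sequence is the central 200 bp of the CTCF peak.
chr11:28551301-28551500, beside the region chr11:28551451-28551751, 422 kb from METTL15: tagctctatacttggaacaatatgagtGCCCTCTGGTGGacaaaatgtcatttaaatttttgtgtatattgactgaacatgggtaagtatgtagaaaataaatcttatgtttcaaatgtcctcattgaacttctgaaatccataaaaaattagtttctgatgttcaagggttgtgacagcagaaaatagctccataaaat
chr3:167883601-167883800, beside chr3:167883251-167883501, 69.5 kb from GOLIM4: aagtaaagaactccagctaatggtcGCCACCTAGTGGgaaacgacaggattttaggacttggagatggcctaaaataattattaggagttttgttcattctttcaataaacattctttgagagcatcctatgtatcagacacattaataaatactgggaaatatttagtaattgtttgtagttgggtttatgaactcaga
chr7:128249076-128249275, beside chr7:128249251-128249501, 62.8 kb from GARIN1A: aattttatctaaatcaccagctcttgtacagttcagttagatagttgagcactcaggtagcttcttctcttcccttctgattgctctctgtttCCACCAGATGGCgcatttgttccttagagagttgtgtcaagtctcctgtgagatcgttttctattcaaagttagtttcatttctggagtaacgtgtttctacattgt
chr11:27861126-27861325, beside chr11:27860901-27861201, 139 kb from BDNF: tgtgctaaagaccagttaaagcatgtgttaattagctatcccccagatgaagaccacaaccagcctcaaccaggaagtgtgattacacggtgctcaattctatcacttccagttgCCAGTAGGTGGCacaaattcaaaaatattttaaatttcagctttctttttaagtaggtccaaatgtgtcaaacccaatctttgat

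By this choice the motif of these 4 examples lay outside the acetylated region. It ended or began 111, 125, 70 and 40 bp from the edge of the region, in the order printed.

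The H3K27ac-only regions were small. Their widths ran from 200 to 2400 bp with a median of 300 bp (quartiles 200 and 550 bp), and 167 of the 554 had the smallest width in the list, 200 bp. Distal H3K27ac regions with H3K4me1 and no H3K4me3 (20106 regions, called H3K4me1-marked regions below) had a median width of 950 bp (quartiles 450 and 1700 bp). The share of regions under 400 bp was 60.8% among the H3K27ac-only regions and 21.0% among the H3K4me1-marked ones. A narrow region has fewer bases with which to meet any other region, so width bears on the rule that chose them and on each overlap reported below. In all, the H3K27ac-only regions covered 243 kb, whereas the H3K4me1-marked regions covered 26.1 Mb.

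The distance to the nearest H3K4me1 region, measured between edges, had a median of 3.95 kb, with quartiles of 0.700 and 18.2 kb. It is given as a description because the rule used it. Of the 554 regions, 121 lay within 500 bp of H3K4me1, 170 within 1000 bp, 302 within 5000 bp and 361 within 10000 bp, and 193 lay farther than 10000 bp. The plot of width and distance shows that no single distance dominated. At the inner edge of the rule, 19 regions met an H3K4me1 region end to end without sharing a base and 22 others were 50 or 100 bp from one. Just outside it, 47 distal regions without H3K4me3 shared 50 bp with an H3K4me1 region and 51 shared 100 bp. H3K4me3 was much farther away, with a median of 50.4 kb, and 13 regions lay within 1000 bp of it. At the promoter limit, 4 regions lay within 500 bp of a 3 kb window, and 22 H3K27ac regions without methylated H3K4 touched such a window and were not members.

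**Figure D1:**
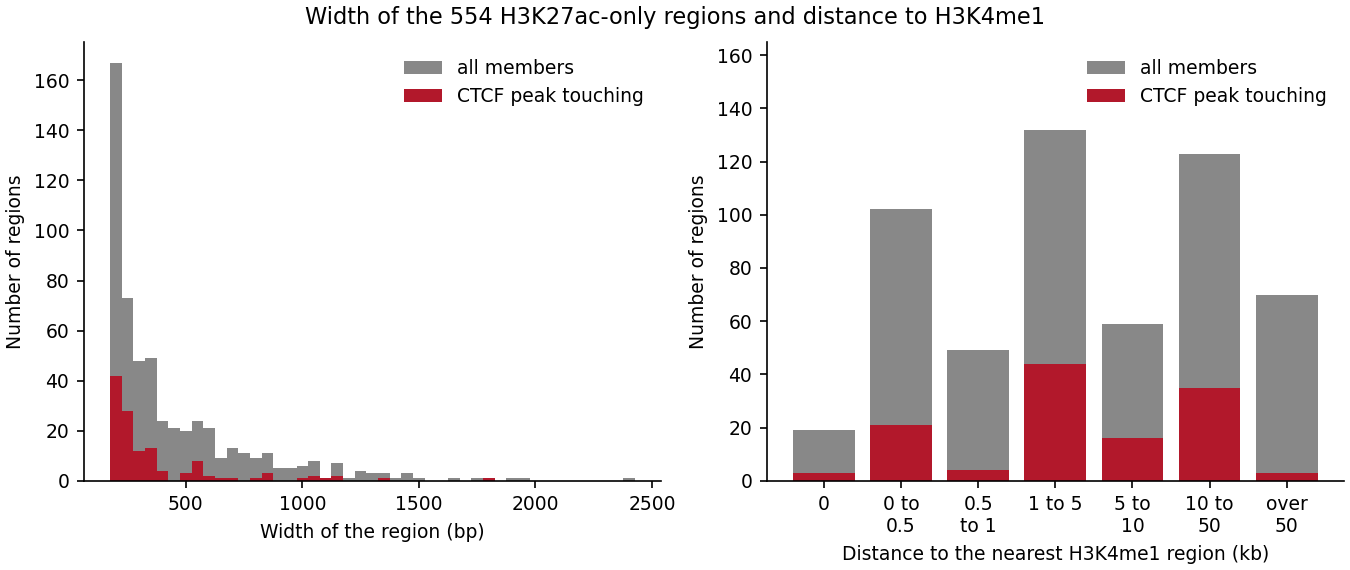
Number of H3K27ac-only regions by width in bp (left) and by distance to the nearest H3K4me1 region in kb (right), with all 554 regions in grey and the 126 touched by a CTCF peak in red. The narrowest bar holds 167 regions, and the distances spread from 0 to over 50 kb, where 3 of 70 regions had a CTCF peak.

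Among the regions farthest from H3K4me1, the 5 named here had their next H3K27ac region 29.7 to 488 kb away. Outside the neighbourhood of long undetermined stretches of the assembly, the region with the greatest distance was chrX:91502551-91502751, in an intron of PCDH11X, a protocadherin gene. Its nearest H3K4me1 region was 2812 kb away, but its nearest H3K4me3 region was 27.1 kb and its next H3K27ac region 29.7 kb away. It was followed by chr4:171593501-171593801 (423350 bp, 582 kb upstream of AADAT), chr3:82524201-82524401 (316250 bp, 713 kb upstream of GBE1), chr7:119361001-119361201 (299750 bp, 552 kb upstream of KCND2) and chr3:165700951-165701801 (290000 bp, 146 kb upstream of BCHE). None of these 5 was touched by a p300/CBP, Pol II or CTCF peak. Other H3K27ac regions were also scarce around the members in general, with a median distance to the next one of 11750 bp, compared with 5650 bp for H3K4me1-marked regions. This was not particular to the members. For the 1154 distal H3K27ac regions with H3K4me3 and no H3K4me1 the median was 16925 bp. Of the 554 members, 293 had no other H3K27ac region within 10 kb.

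The widest H3K27ac-only region, chrX:20379351-20381751 (2400 bp), lay 94.3 kb upstream of RPS6KA3, a kinase gene of the Ras and ERK pathway, and was the one of the 5 widest with a Pol II peak. The next was chr18:825351-827301 (1950 bp), 13.1 kb upstream of YES1, which encodes a Src family kinase, and it held 1 p300/CBP peak and 3 AP-1 motifs. It was followed by chr14:46523101-46525001 (1900 bp) in an intron of the lncRNA LINC00871, with no factor peak, and by chr9:114521901-114523701 (1800 bp) in an intron of SHOC1, with 1 CTCF peak. The region chr7:105953401-105955151 (1750 bp), with no factor peak, lay 28.0 kb upstream of NAMPT, an enzyme of NAD synthesis. Their distances to H3K4me1 ran from 2450 bp at the region near YES1 to 14500 bp at the region in SHOC1.

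Factor peaks were then counted at the H3K27ac-only regions. CTCF was the most frequent of the 3 factors: 126 of 554 regions (22.7%, 95% Wilson interval 19.4% to 26.4%) shared at least 1 bp with a CTCF peak, where the share over all H3K27ac regions was 16.8%. Pol II peaks touched 33 regions (5.96%, 4.27% to 8.25%), against 40.9% of all H3K27ac regions. p300/CBP peaks touched 13 regions (2.35%, 1.38% to 3.97%), against 12.8% of all. Intervals cover counting error only. CTCF alone was present at 118 regions, Pol II alone at 25 and p300/CBP alone at 11, whereas 7 regions had Pol II with CTCF, 1 had p300/CBP with CTCF, 1 had p300/CBP with Pol II, 0 had all 3 and 391 had none.

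Compared with the H3K4me1-marked regions, CTCF was more frequent at the H3K27ac-only regions. Among the H3K4me1-marked regions 9.46% (9.06% to 9.87%) were touched by CTCF, which gave an odds ratio of 2.82 (two-sided Fisher's exact test, Benjamini-Hochberg adjusted p = 3.89e-19 over 6 tests). Regions are not replicates of an experiment, so these p-values describe the lists. The difference was also present between regions of like width: within 4 classes of width the Mantel-Haenszel odds ratio was 2.92 (95% interval 2.37 to 3.61, exact conditional test, adjusted p = 4.18e-19). The CTCF share of the H3K27ac-only regions was 28.2% under 400 bp (23.7% to 33.2%), 15.1% from 400 to 650 bp, 13.6% from 700 to 1250 bp and 11.8% at 1300 bp or more, where there were 17 regions. In the H3K4me1-marked regions it stayed between 8.63% and 10.3% in all 4 classes. The intervals of both kinds of region were separate under 400 bp, while in the other 3 width classes they overlapped.

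CTCF at such shares was not particular to regions without methylated H3K4. Of the 1154 distal H3K27ac regions with H3K4me3 and no H3K4me1, 28.3% (25.8% to 31.0%) had a CTCF peak, and 26.2% of the 6864 with both marks did. Under 400 bp the shares were 25.2% (20.8% to 30.2%) with H3K4me3 alone and 25.8% (22.3% to 29.6%) with both, and these intervals overlap that of the H3K27ac-only regions. The H3K4me1-marked class was the low one among the 4 distal classes.

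For the other factors the difference went with width. p300/CBP was present at 16.1% of the H3K4me1-marked regions (odds ratio 0.125, Fisher's exact test, adjusted p = 6.90e-25), but the Mantel-Haenszel odds ratio within width classes was 0.879 (0.483 to 1.60, exact conditional test, adjusted p = 0.922). At 1300 bp or more, 5 of 17 H3K27ac-only regions (29.4%, 13.3% to 53.1%) had a p300/CBP peak, compared with 37.5% of the H3K4me1-marked ones, and under 400 bp the shares were 0.593% and 0.284%. Pol II was present at 9.69% of the H3K4me1-marked regions (odds ratio 0.590, Fisher's exact test, adjusted p = 0.00314), and within width classes the odds ratio was 1.004 (0.699 to 1.44, exact conditional test, adjusted p = 0.926). The lower shares of p300/CBP and Pol II were therefore not seen between regions of like width, and the intervals leave room for differences in either direction.

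**Figure D2:**
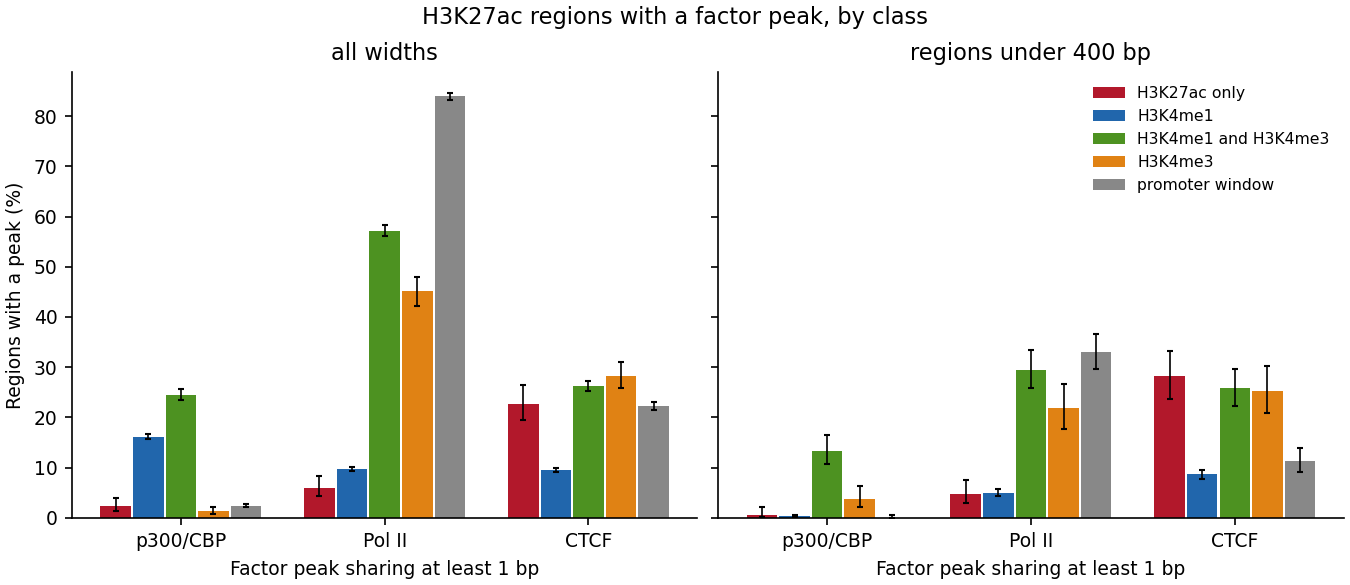
Share of H3K27ac regions in % with a p300/CBP, Pol II or CTCF peak, for the 5 classes of H3K27ac region, over all widths (left) and for regions under 400 bp (right). Bars are shares and lines 95% Wilson intervals; the CTCF bar of the H3K27ac-only regions (22.7%, and 28.2% under 400 bp) is above that of the H3K4me1-marked regions (9.46% and 8.63%), while their Pol II bars under 400 bp are close (4.75% and 5.02%).

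The position of the CTCF peaks showed that most of the H3K27ac-only regions with CTCF lay beside the centre of the CTCF peak and not on it. The 126 regions were touched by 127 CTCF peaks, whose median width was 350 bp, and the centres of peak and region were 200 bp apart in the median (quartiles 150 and 250 bp). The shared stretch was 100 bp in the median, and in 16 of the 127 pairs the centres were within 100 bp of each other. Narrow H3K4me1-marked regions with CTCF were placed alike. Under 400 bp the centres were 200 bp apart at H3K27ac-only and 225 bp at H3K4me1-marked regions, in the median. The shared stretch was 100 bp in both, and 8.33% and 5.48% of pairs, respectively, had centres within 100 bp. When the centre of the CTCF peak had to lie inside the region, the share fell to 5.23% and the difference from the H3K4me1-marked regions was lost (odds ratio 0.866, Fisher's exact test, adjusted p = 0.525). Within width classes it was kept under the same criterion (odds ratio 2.06, exact conditional test, adjusted p = 0.00339), an alternative added once the values were known. When a CTCF peak closer than 500 bp was enough, the share was 30.5% (odds ratio 3.11, Fisher's exact test, adjusted p = 5.91e-28).

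**Figure D3:**
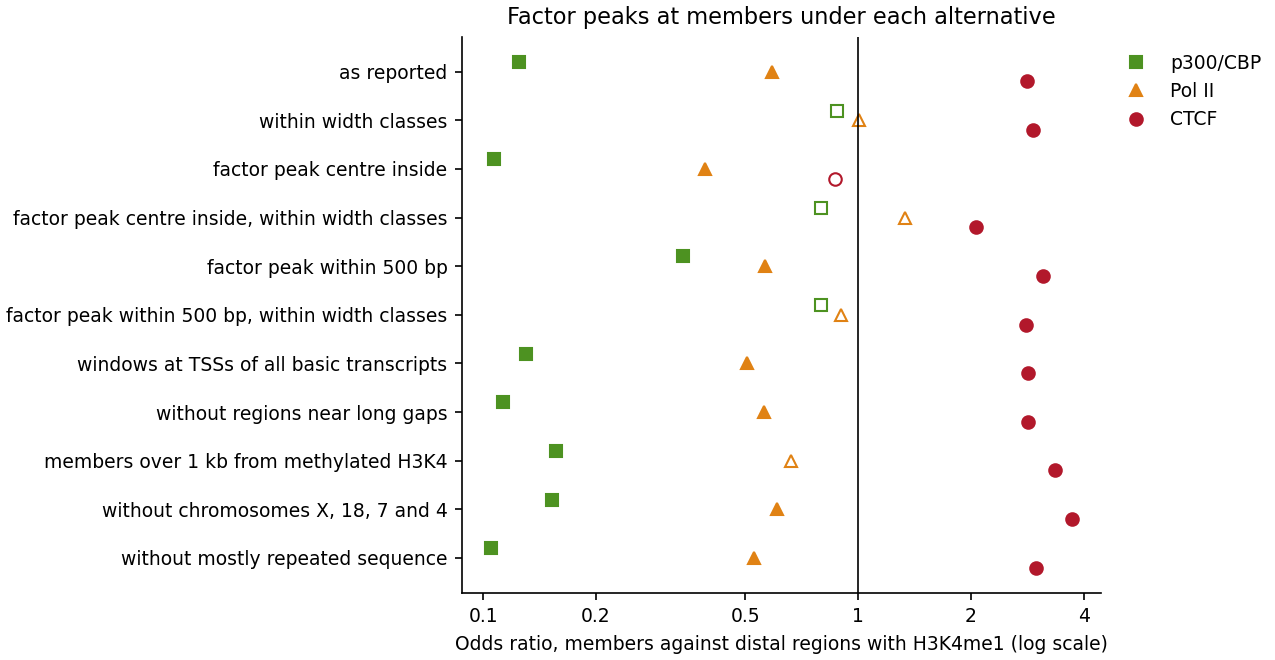
Odds ratio of a p300/CBP (squares), Pol II (triangles) or CTCF (circles) peak at H3K27ac-only against H3K4me1-marked regions, on a log axis, as reported and under 10 alternatives; filled symbols have an adjusted p under 0.05. CTCF stays between 2.06 and 3.71 except where the peak centre had to lie inside the region (0.866), and p300/CBP and Pol II come close to 1 or lose the call within width classes.

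Around the 337 H3K27ac-only regions under 400 bp, CTCF peaks covered 12.5% of the centres (9.35% to 16.4%). At 200 bp to the left, on the forward strand, they covered 13.4% (10.1% to 17.4%), and at 200 bp to the right 20.8% (16.8% to 25.4%). At 1000 bp on either side they covered 0.297%. The 4219 H3K4me1-marked regions under 400 bp had 3.29% at the centre (2.80% to 3.88%) and 5.31% (4.67% to 6.03%) and 5.52% (4.87% to 6.25%) at 200 bp to the left and right. The dip at the centre was thus within counting error on the left side of the H3K27ac-only regions, and larger than it on both sides of the H3K4me1-marked ones. A CTCF peak next to a narrow acetylated region was thus found in both classes, and more often in the H3K27ac-only class.

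**Figure D4:**
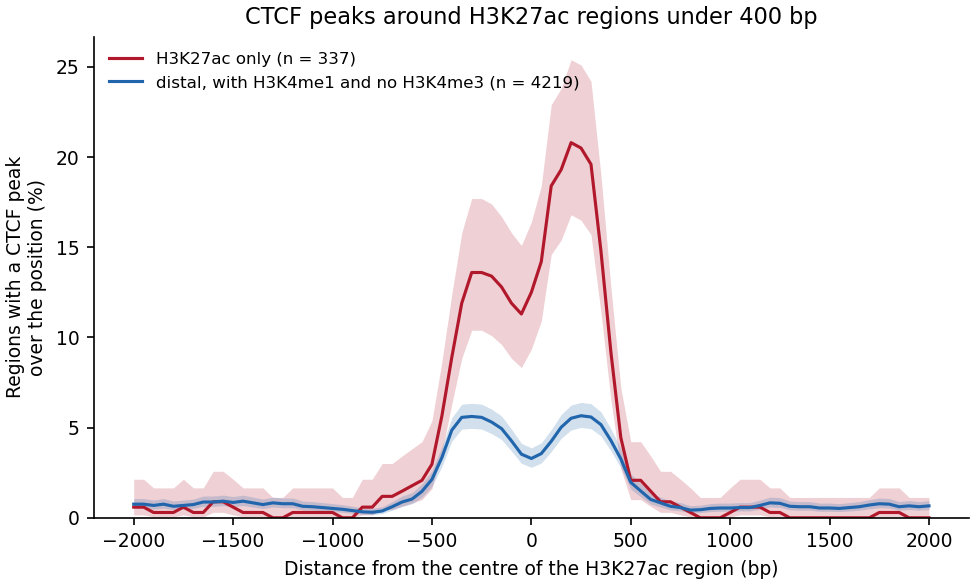
Share of H3K27ac regions under 400 bp, in %, with a CTCF peak over each position from 2000 bp before to 2000 bp after the centre of the region, for 337 H3K27ac-only regions (red) and 4219 H3K4me1-marked regions (blue), with 95% Wilson intervals as shading. The red curve is at 12.5% at the centre, 13.4% at 200 bp to the left and 20.8% to the right, and the blue curve at 3.29%, 5.31% and 5.52%.

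The CTCF core motif of the printed sequences was then searched in the CTCF peaks, and most matches at H3K27ac-only regions lay outside the acetylated stretch. It was found in the central 300 bp of 59 of the 127 CTCF peaks at H3K27ac-only regions (46.5%, 38.0% to 55.1%), of 41.9% of the CTCF peaks at H3K4me1-marked regions, of 38.6% of all 39596 CTCF peaks and of 3.00% of windows 10 kb from CTCF peaks. The interval for the CTCF peaks at H3K27ac-only regions includes the share over all CTCF peaks. Those 59 peaks held 61 motifs, of which 46 lay wholly outside the acetylated region, 14 inside and 1 across its edge. The motifs outside were 77.5 bp from the edge of the region in the median (quartiles 62.2 and 107 bp) and 143 bp at most. Only CTCF peaks that touched a region were searched, and only in their central 300 bp. Long distances were thereby left out in advance, so these values do not measure a spacing. At H3K4me1-marked regions of all widths they were 87 bp from it in the median (quartiles 61 and 116 bp). The share outside was 75.4% (63.3% to 84.5%) at H3K27ac-only regions and 41.7% (38.5% to 44.9%) at H3K4me1-marked regions of all widths. Under 400 bp it was 89.6% (77.8% to 95.5%) and 94.4% (90.2% to 96.8%), respectively, with overlapping intervals. Nucleosome positions were not measured in these data.

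The motif has a direction, and the H3K27ac-only region lay on the 3' side of the motif, read as CC to GGC, in 32 of the 46 cases outside (69.6%, 55.2% to 80.9%). At H3K4me1-marked regions it did so in 248 of 377 cases (65.8%, 60.9% to 70.4%). The same side was favoured in both classes, and the intervals overlap.

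The CTCF share also moved with the distance to H3K4me1. It was 20.6% (13.9% to 29.4%) for the 102 regions more than 0 and up to 500 bp away, 33.3% (25.9% to 41.7%) for the 132 at over 1000 to 5000 bp, 28.5% (21.2% to 37.0%) for the 123 at over 10000 to 50000 bp, and 4.29% (1.47% to 11.9%) for the 70 beyond 50000 bp. It was 8.16% (3.22% to 19.2%) for the 49 regions at over 500 to 1000 bp. CTCF was thus rare at the regions farthest from H3K4me1. Without chromosomes X, 18, 7 and 4, described below, CTCF was present at 2 of the 36 regions beyond 50000 bp. At over 1000 to 5000 bp it was present at 36 of the 93. Among the 377 regions over 1000 bp from both methyl marks it was 26.0% (odds ratio against the H3K4me1-marked regions 3.36, Fisher's exact test, adjusted p = 1.57e-19), so the excess was as large without the regions at the margin of an H3K4me1 region.

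The 13 regions with p300/CBP were wider than the rest, with a median of 1050 bp against 300 bp, and lay 13.2 kb from H3K4me1 in the median. An AP-1 motif was found somewhere in 9 of the 13, and in 106 of all 554 regions (19.1%). Wider regions have more bases in which to hold a motif, and these shares were not compared at like width. In 4 of the 13, sequence that occurs more than once in the genome made up most of the central 300 bp, compared with 17.9% of all 554 regions. Outside the neighbourhood of long undetermined stretches there were 11 of the 13. The one with 2 p300/CBP peaks was chr13:35096551-35097501 (950 bp), over an exon of a lncRNA gene (LINC00457 and LINC02343 lie there) and 419 kb upstream of NBEA. With 1 peak each, wide ones included the region near YES1 given above, chr12:47392051-47393451 (1400 bp, 80.0 kb upstream of PCED1B) and chr9:114628901-114630201 (1300 bp, upstream of UGCG, the glucosylceramide synthase gene), whose central window, printed above, holds 1 AP-1 motif. Outside the rule for named regions, and chosen after their values were seen, chr7:83097951-83099001 (1050 bp), lay in SEMA3E, which encodes a secreted semaphorin, and touched an exon, 450 bp from H3K4me1, and chr5:97685051-97685601 (550 bp, 424 kb upstream of RGMB) was the one region with both p300/CBP and CTCF. A further 31 regions had a p300/CBP peak closer than 500 bp without touching it, and 14 of these 31 lay more than 1000 bp from H3K4me1. Together with those touched, 44 of the 554 (7.94%) had a peak that close, compared with 20.2% of the H3K4me1-marked regions. Under 400 bp the shares were 5.64% (3.64% to 8.64%) and 8.11% (7.32% to 8.97%), respectively, with overlapping intervals.

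The 33 Pol II peaks at H3K27ac-only regions were 400 bp wide in the median and ran from 150 to 32450 bp, and 9 of the 33 regions were in protein-coding genes. The 7 regions with Pol II and CTCF, which were listed after their values were seen, had a GC content of 49.7% to 66.0% and 2 to 21 CpGs in their central 300 bp, and the highest values of both were at chrX:129194451-129195051 (600 bp), 49.4 kb from ELF4.

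Most H3K27ac-only regions lay outside protein-coding genes. Of the 554, 205 (37.0%, 33.1% to 41.1%) overlapped a protein-coding gene, compared with 55.9% of the H3K4me1-marked regions and 36.7% of the distal regions with H3K4me3 and no H3K4me1 (odds ratio against the H3K4me1-marked regions 0.462, Fisher's exact test, adjusted p = 2.59e-18, and 0.467 within width classes, exact conditional test, adjusted p = 3.41e-17). By annotation, 63 regions touched an exon of a basic transcript, 176 lay in an intron of a protein-coding gene, 88 in an intron of a lncRNA gene and 227 between genes. The nearest canonical TSS was 65.2 kb away in the median (quartiles 22.0 and 186 kb), compared with 46.7 kb for the H3K4me1-marked regions, and 216 regions (39.0%) were more than 100 kb from it. The regions lay upstream of that TSS in 293 cases and had 496 different nearest genes, so that few genes had several.

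A TSS that the promoter windows did not cover was touched by 13 regions (2.35%, 1.38% to 3.97%), compared with 3.24% of the H3K4me1-marked regions (odds ratio 0.718, Fisher's exact test, adjusted p = 0.273). Within width classes the odds ratio turned to 1.45 (0.822 to 2.57, exact conditional test, adjusted p = 0.343). For 6 regions the TSS belonged to a lncRNA. The widest of these were chr2:68052451-68053301 (850 bp) at LINC01812, chr17:76627951-76628701 (750 bp) at SCAT1, the one of the 5 widest with a Pol II peak, chr13:111618001-111618551 (550 bp) at an unnamed lncRNA 50.6 kb upstream of ANKRD10, chr4:115285951-115286501 (550 bp) at an unnamed lncRNA 233 kb from UGT8, and chr7:95174551-95175051 (500 bp) at PDK4-AS1, with a CTCF peak.

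Few of the regions had a gene of the 4 lists used here as their nearest gene. Among 34 genes whose promoters were used as viewpoints in the study's chromatin contact assay, of which 33 were matched to a canonical TSS, 3 were nearest to a region: CDCP1, a transmembrane glycoprotein gene (chr3:45185851-45186101, 1.77 kb downstream of the TSS), TSPAN2, a tetraspanin gene (chr1:115641801-115642151, 9.68 kb upstream), and TGFB2, a growth factor gene (chr1:218503651-218504001, 14.7 kb upstream, with a CTCF peak). These made 0.542% of the H3K27ac-only regions, and 1.01% of the H3K4me1-marked regions had a gene of this list as nearest. Of 22 mesenchymal and basal genes 3 were nearest to a region: MET, a receptor tyrosine kinase gene (chr7:116273651-116274001, 38.2 kb upstream, with a CTCF peak), ANXA1, an annexin gene (chr9:75708801-75709101, 57.7 kb upstream), and CDH2, the gene of N-cadherin (chr18:26485801-26486151, 729 kb upstream). These made 0.542% of the H3K27ac-only regions, and 0.547% of the H3K4me1-marked regions had a gene of this list as nearest. None of 7 AP-1 genes and none of 15 genes of H3K4 methyltransferases, demethylases and acetyltransferases was nearest to a region. Of the 20106 H3K4me1-marked regions, 28 (0.139%) and 12 (0.0597%) had a gene of these lists as nearest. With shares this small, a count of 0 among 554 regions does not tell the classes apart.

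The central 300 bp of the H3K27ac-only regions held the AP-1 motif in 80 cases (14.4%, 11.8% to 17.6%), compared with 28.0% of the H3K4me1-marked regions (odds ratio 0.433, Fisher's exact test, adjusted p = 1.13e-13) and 19.2% of all H3K27ac regions. Windows of the same length 10 kb away held it in 9.04% and 9.26% of cases, respectively. Within width classes the odds ratio was 0.738 (0.575 to 0.949, exact conditional test, adjusted p = 0.0356). Under 400 bp the motif was found in 8.61% of H3K27ac-only regions, about the level 10 kb away, and from 700 to 1250 bp in 34.6% (25.1% to 45.4%) of them, compared with 42.3% of the H3K4me1-marked regions. The motif was thus least frequent in the narrowest regions of both classes.

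GC content of the central window was 41.8% in the median (quartiles 36.7% and 48.3%) and 39.7% in windows 10 kb away, compared with 45.0% and 43.0% for H3K4me1-marked regions. The 1154 regions with H3K4me3 and no H3K4me1 were at 53.7%. Sequence that occurs more than once in the genome, counted as 24-base words, made up most of the central window at 99 of the 554 regions (17.9%, 14.9% to 21.3%), compared with 5.93% of the H3K4me1-marked regions and 19.9% (17.7% to 22.3%) of those with H3K4me3 and no H3K4me1. Reads that map to more than one place were not used by the authors, and the part of repeated sequence in the absence of H3K4me1 was not tested. Without such regions, and with width not matched, the CTCF odds ratio was 2.99 and that of p300/CBP 0.105. The p300/CBP difference was not seen between regions of like width when all were used, as given above.

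The H3K27ac-only regions were unevenly spread over the chromosomes. Of the distal H3K27ac regions of chromosome X, 62 of 528 (11.7%, 9.27% to 14.8%) were H3K27ac-only. The share was 6.41% on chromosome 18 (33 of 515, 4.60% to 8.86%), 4.49% on chromosome 7 (56 of 1246, 3.48% to 5.79%) and 3.83% on chromosome 4 (49 of 1280, 2.91% to 5.02%), and the other autosomes lay between 0.790% and 2.85%. These 4 chromosomes held 200 of the 554 regions (36.1%) and 12.4% of all distal regions. The number of H3K4me1 regions on a chromosome bears on these shares through the rule. Chromosome number in this aneuploid line was not measured here, and its part in these shares was not tested.

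**Figure D5:**
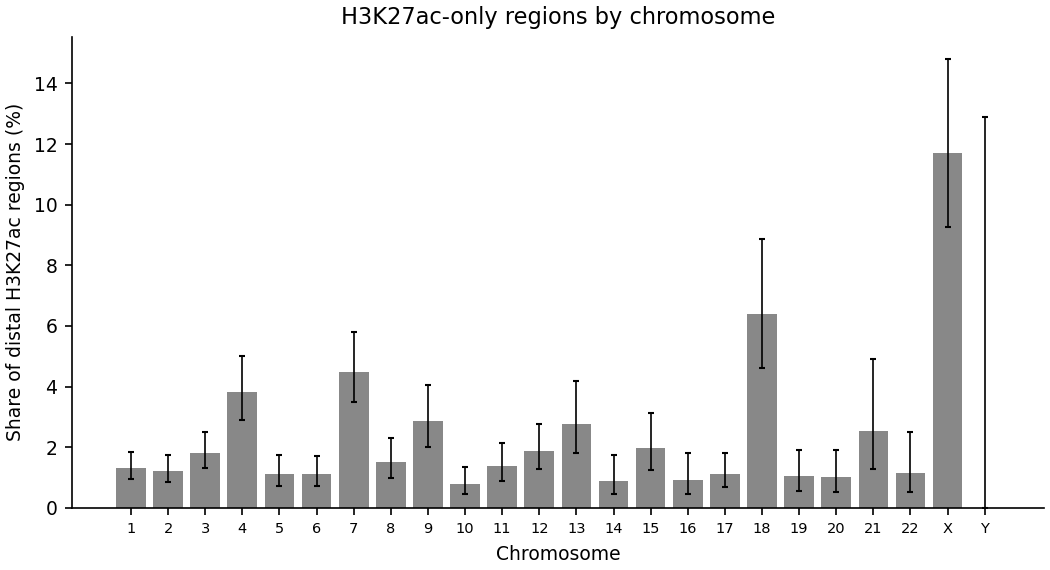
Share of distal H3K27ac regions, in %, that were H3K27ac-only on each chromosome (bars), with 95% Wilson intervals (lines). The bar of chromosome X is at 11.7%, those of chromosomes 18, 7 and 4 are at 6.41%, 4.49% and 3.83%, and chromosome Y had 0 of 26 regions.

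CTCF was also unevenly spread. On these 4 chromosomes a CTCF peak touched 22 of the 200 (11.0%, 7.38% to 16.1%) and 104 of the 354 on the other chromosomes (29.4%, 24.9% to 34.3%), with intervals that do not overlap, and among H3K4me1-marked regions the shares were 5.21% and 10.1%. Chromosome 7 was the exception of the 4, with 13 of 56 (23.2%, 14.1% to 35.8%), compared with 3 of 62 on chromosome X. Without the 4 chromosomes, an alternative added once the values were known, the odds ratio of CTCF against the H3K4me1-marked regions was 3.71 (Fisher's exact test, adjusted p = 1.25e-22).

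Of the 1-Mb windows that held any of the regions, 380 had 1, 67 had 2, 9 had 3, 2 had 4 and 1 had 5. The windows with 4 were chr7:76000001-77000000 and chrX:45000001-46000000. In the last window all 4 had DIPK2B as their nearest gene, at 280 to 541 kb, and 1 of them, chrX:45601301-45602301, had a Pol II peak.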

How the data were processed

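ChIP-seq of MDA-MB-231 cells had been performed in 2 independent replicates per antibody, and in 1 library of pooled immunoprecipitations for p300/CBP. Per the study's methods, reads were aligned to hg19 with BWA-backtrack, although the submitters' processing notes name Bowtie2. The authors merged the replicates of uniquely mapped reads in 50 bp bins and called peaks by thresholding. The threshold was 50 for H3K27ac and 30 for H3K4me1 and H3K4me3. Bins were joined across 500 bp for H3K27ac and H3K4me3 and 1000 bp for H3K4me1. The minimal run was 150 bp for H3K27ac and H3K4me3 and 250 bp for H3K4me1. For CTCF, Pol II and p300/CBP, in this order, the threshold was 50, 50 and 60. Their bins were joined across 50, 800 and 50 bp, and their minimal run was 50, 100 and 50 bp. The lists are labelled as background-subtracted except those of CTCF and Pol II. The narrowest listed region was 200 bp for H3K27ac and 300 bp for H3K4me1. No H3K4me1 region as narrow as the 167 members of 200 bp was therefore listed anywhere. The deposited files are 6 lists of positions in bp, with no score per peak, so that depth is unknown. All listed positions are of the form 50 n + 1, and the end was read as the first base after the peak. Input libraries were not analysed here, and no column of values was left unmapped.

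Regions were compared with Python 3.11.15, NumPy 2.4.6, SciPy 1.17.1 and statsmodels 0.14.6, on chromosomes 1 to 22, X and Y. Overlap meant at least 1 shared bp. Promoter windows were 3 kb around 19881 canonical TSSs of protein-coding genes in GENCODE release 44 on GRCh37, whose chromosome lengths match hg19 apart from the mitochondrial genome, which was not used. Shares have 95% Wilson intervals, and 6 shares were compared with Fisher's exact test, two-sided, adjusted after Benjamini and Hochberg. Comparisons within 4 classes of width give a Mantel-Haenszel odds ratio with a two-sided exact conditional p, summed over the strata. On simulated intervals the overlap functions gave 0 wrong answers in 3600 comparisons. The members, gene lists and tests were chosen with earlier results of these data known. Regions named singly are the 5 widest, the 5 farthest from H3K4me1, the 5 with most p300/CBP peaks (widest first among equals), those at a lncRNA TSS, those nearest to a listed gene, and the 1-Mb windows with most members. Those closer than 5 Mb to the longest run of undetermined bases on a chromosome (36 members) were left out when naming the farthest ones and those with p300/CBP. Of what this rule names, 1 of the 5 regions with p300/CBP and 1 window are not reported here, and the sequences of 2 further regions with p300/CBP were chosen after their values were seen.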

Additional observations from a re-analysis of the deposited data

How the results depend on the processing

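Of 51 alternative values for 8 results, 40 kept the direction and the side of the threshold, or stayed within the stated range. The 554 regions became 1007 when less than 50% of the region had to be covered by methylated H3K4 and 17 when the region had to reach the median width of the list, and the other alternatives gave 382 to 518. Within width classes the odds ratios of p300/CBP (0.879), Pol II (1.004) and another TSS (1.45) lost the call or turned, as given in the report or here. With the factor peak centre inside the region the odds ratio of CTCF turned to 0.866, and with width classes as well, p300/CBP was at 0.796 and Pol II at 1.33. With a factor peak within 500 bp and width classes, p300/CBP was at 0.797 and Pol II at 0.900. Among regions over 1000 bp from both methyl marks Pol II was at 0.662 (Fisher's exact test, adjusted p = 0.0519). The cause of these changes was not tested. The alternatives that combine a position with width, and those without 4 chromosomes or repeated sequence, were chosen after seeing the data.

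No paired analysis was possible because each list was called on merged replicates, which also prevents leaving out a replicate. The lists hold no value per peak, so a stricter threshold was not run. The absence of H3K4me1 means that no region passed the authors' threshold and minimal run of 250 bp, not that the mark was absent. The lists give no depth by which to judge how near the threshold a position lay.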
